A study of Mus musculus with 6 samples.

Results

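Calvaria and mandible, the roof of the skull and the lower jaw, were compared together with the ulna, a long bone of the forelimb, to ask which genes set both skull bones apart from a limb bone. Each bone was measured on 2 Affymetrix mouse expression arrays, so 4 skull arrays stood against 2 ulna arrays, with equal weight for each skull bone. A probe set was tested if 2 or more of the 6 arrays gave it a signal over their own median, which left 25233 of 45101, standing for 12326 genes. All 4 skull arrays lay above both ulna arrays for 4800 of them (19.0% of those tested) and below both for 7650 (30.3%), which stand for 2712 and 3657 genes. These are the genes described, and a call also needed an adjusted p under 0.05 from limma and a difference of at least 2-fold. The mice of all 3 groups were males of 24 to 26 grams, described in the methods as skeletally mature Black CD57 mice, and none was treated. Sutures had been cut out of the calvaria and soft tissue and epiphyses off the ulna, while the mandible included the teeth. The methods say how many mice the pilot used and that they formed a pair of groups, but which mice gave which array and whether RNA was pooled are not given in the sources used here. The p-values speak for the spread between arrays alone, which may be technical.

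The skull vault and the jaw form largely by intramembranous ossification, in which mesenchymal cells turn into osteoblasts without a cartilage model, and most facial bone descends from the neural crest. The ulna forms from limb mesoderm through cartilage and keeps a marrow cavity. In the embryo, homeobox genes of the Msx, Dlx and Alx families pattern the head, the Hox clusters assign position along the trunk and limbs, and the facial skeleton forms from cells without Hox expression.

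Osteoblast genes and most collagen genes were higher in each skull bone, and most of the red cell, fat and muscle genes tested were lower in the skull mean. All 15 osteoblast genes tested and 19 of 21 collagen and collagen-processing genes were higher, with list medians of 2.49 and 2.21 on the log2 scale against -0.11 over all tested probe sets. Of 25 embryonic head patterning genes, 10 were called higher, among them Twist1 and Dlx5. Of 19 red cell genes 16 were lower, with 18 lower in mandible and 5 in calvaria against the same ulna arrays. Of 30 muscle genes 22 were lower, with 29 lower in calvaria and 4 in mandible. Of 10 fat genes 6 were lower, and for Adipoq the skull bones had nearly the same level. In all, 1905 probe sets were called higher in skull (7.55%) and 1857 lower (7.36%), standing for 1092 and 844 genes. Both ulna arrays lay below the array median for 764 of the 1905, which passed the filter through skull arrays alone. All skull arrays lay below it for 192 of the 1857, which passed through ulna arrays alone. With the values as deposited, without division by the array median, 2193 were called higher and 1389 lower, a share of 61.2% higher in place of 50.6%. The median over all tested probe sets was -0.11 after division by the array median and -0.02 as deposited, so the scaling moves every difference by about that much.

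The 6 arrays had the same trimmed mean signal of 100, with array medians from 30.6 to 33.6. Ratios of 3' to 5' probe sets, a sign of RNA integrity, were 0.791 to 0.836 for Gapdh in skull against 0.92 and 0.933 in ulna, and 1.39 to 1.60 for actin in skull against 1.62 and 1.67 in ulna. Both controls therefore separated the bones slightly, and the part of RNA integrity in the differences was not tested. Muscle markers summed to 13256 and 13421 in calvaria, 92096 and 89998 in mandible and 102899 and 105113 in ulna. Erythroid markers summed to 7756 to 13725 in skull and to 22081 and 21814 in ulna. In such whole-bone RNA, fewer cells of a type and less RNA per cell cannot be told apart. Tooth markers were low in calvaria and ulna, where all 8 tested summed to 55.3 to 104.9, and summed to 64534 and 64724 in mandible.

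Each skull bone was also set against ulna on its own. Against the same ulna arrays, 1741 probe sets were called higher in calvaria (6.90%) and 1250 lower (4.95%), while 2362 were called higher in mandible (9.36%) and 2862 lower (11.3%). Of the 1905 probe sets higher in skull, 1214 (63.7%) passed in each skull bone alone. Of the 1857 lower, 612 (33.0%) did, and 943 passed in mandible alone. These counts share the ulna arrays and are given side by side. The direct comparison of mandible with calvaria, which uses no ulna array, called 1032 probe sets higher in mandible (4.09%) and 877 higher in calvaria (3.48%). It called none of the differences between skull bones for 1608 (84.4%) of the higher and 1373 (73.9%) of the lower probe sets. Over all tested probe sets, 7.57% were called between the skull bones, so most showed no called difference. A p that misses the limit does not show that the skull bones are alike. The same holds for the counts without a called difference given below. The difference shared by the skull bones, taken as the smaller of their differences from ulna, reached 8-fold for 99 higher and 6 lower probe sets.

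**Figure D1:**
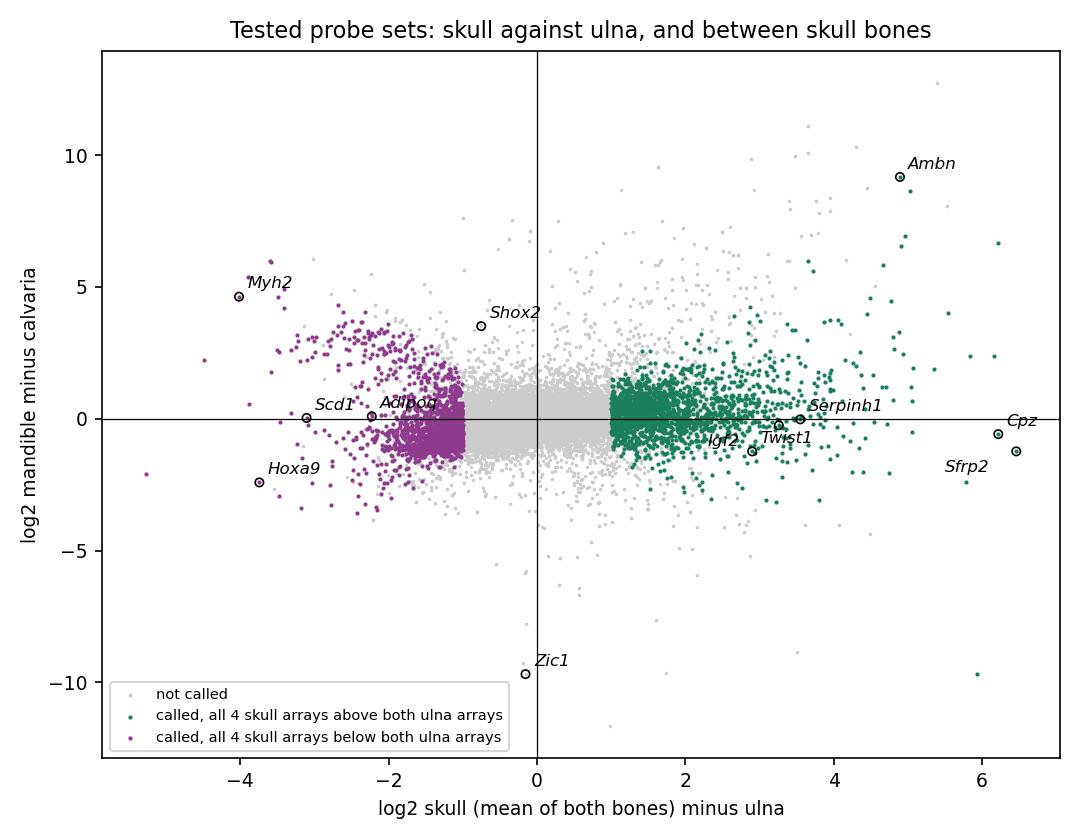
Each point is 1 of 25233 tested probe sets, with the log2 difference of skull from ulna on the horizontal axis and of mandible from calvaria on the vertical axis; green points were called higher in skull, purple points lower, and grey points were not called. Serpinh1, Scd1 and Adipoq lie near 0 on the vertical axis, Sfrp2 and Cpz lie farthest right among the named genes, and Zic1 and Shox2 differ between the skull bones without a shared difference from ulna.

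The 12 genes with the largest shared increase were each called in calvaria and in mandible alone, and 3 of them belong to a gene list. Lead genes of both directions were taken from called genes, so their separation of skull from ulna was fixed by that choice. Sfrp2, a secreted Frizzled-related protein that modulates Wnt signalling, had signals of 2645 and 2945 in calvaria, 1301 and 1137 in mandible, and 22.3 and 17.2 in ulna. Skull and ulna were far apart, with both ulna arrays below the array median and calvaria above mandible. Its log2 difference, skull minus ulna, was 6.46 ± 0.11 (SE; adjusted p = 1.09e-10), and 5.81 with signals below the array median set to the median. Cpz, an extracellular carboxypeptidase with a Frizzled-like domain, gave 312 and 326 in calvaria, 213 and 225 in mandible, and 2.17 and 5.08 in ulna. All skull arrays were high and both ulna arrays were among the lowest signals, with no difference between the skull bones passing the test (adjusted p = 0.278). The log2 difference of 6.22 ± 0.31 became 3.005 with signals set to the median, which raises both ulna signals to it. Such low ulna signals are imprecise, so the size of the fold is uncertain.

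Kdelr3, a receptor that returns escaped chaperones to the endoplasmic reticulum, had 487 and 512 in calvaria, 479 and 464 in mandible, and 27.7 and 13.7 in ulna (log2 difference 4.54 ± 0.22). Its skull arrays lay close together and the ulna arrays were below the median. Gpx7, a peroxidase of the endoplasmic reticulum, gave 319.6 and 432 in calvaria, 365 and 371 in mandible, and 15.6 and 35.0 in ulna. Lrrc15, a membrane protein with leucine-rich repeats, gave 305 and 319.5 in calvaria, 462 and 373 in mandible, and 19.3 and 12.9 in ulna. Both genes had all skull arrays above both ulna arrays, as the choice of genes required. Ptn, the heparin-binding growth factor pleiotrophin, stood at 859 and 724 in calvaria, 1725 and 1954 in mandible, and 72.5 and 39.2 in ulna (log2 difference 4.40 ± 0.19). It was the lead gene with mandible clearly above calvaria, by 1.18 on the log2 scale (adjusted p = 0.00291). Pdgfrl, a receptor-like relative of the PDGF receptors, had 522 and 609, then 373 and 368, against 34.5 and 17.5 in ulna.

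The other lead genes were dimmer. Rerg, a Ras-related growth inhibitor, gave 194 and 144 in calvaria, 121 and 74.8 in mandible, and 15.2 and 2.63 in ulna, a log2 difference of 4.22 ± 0.55. The groups did not overlap, but the ulna arrays were far apart. Mdfi (an inhibitor of MyoD family factors), Cnmd (chondromodulin, a cartilage inhibitor of vessel growth), Bdh2 (a dehydrogenase) and Tmem35a (a chaperone of nicotinic receptors) had skull signals of 16.1 to 76.1 and ulna signals of 0.518 to 2.56. Their log2 differences of 3.82 to 5.04 fell to 0.15 to 0.75 with signals set to the array median, under the limit of 2-fold. Over the 12 lead higher genes, 9 had both ulna arrays below the median, so that these passed the filter through skull arrays alone. Between the skull bones 10 of the 12 showed no called difference, and 7.57% of all probe sets had one.

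**Figure D2:**
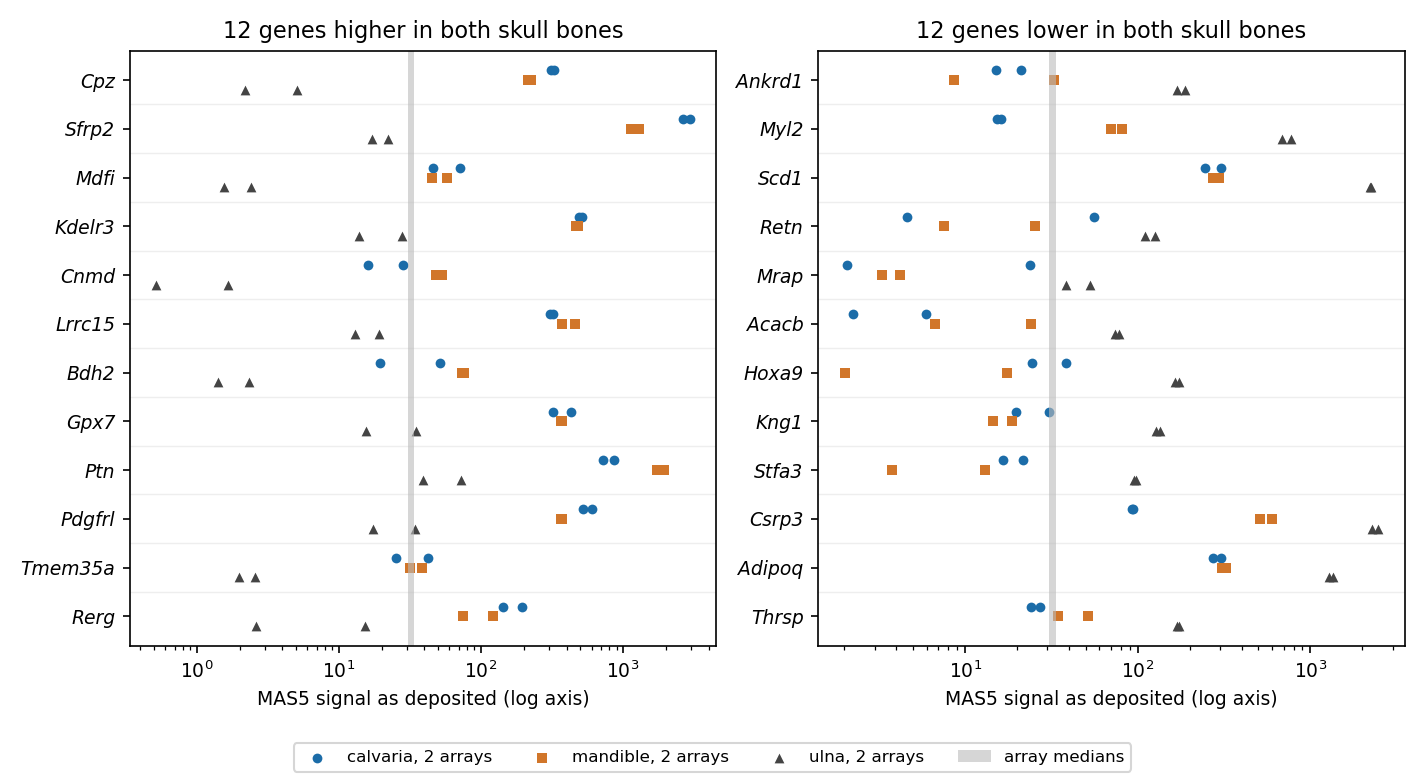
Deposited signal on each array (log axis) for the 12 genes with the largest shared increase and the 12 with the largest shared decrease in skull; circles are calvaria, squares mandible and triangles ulna, and the grey band spans the array medians of 30.6 to 33.6. Every gene separates the 4 skull arrays from both ulna arrays, because the genes were chosen for it. Of the 12 higher genes, 9 have both ulna arrays below their array medians.

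Of the 12 genes with the largest shared decrease, 5 belong to a gene list. Ankrd1, Mrap, Acacb, Kng1 and Stfa3 passed the filter through the ulna arrays alone and so had to come out lower. Scd1, the desaturase that makes monounsaturated fatty acids, had signals of 245 and 302 in calvaria, 298 and 274 in mandible, and 2259.8 and 2229 in ulna. The skull bones overlapped each other and lay well under ulna, with a log2 difference of -3.11 ± 0.09 (adjusted p = 2.05e-09). Another Scd1 probe set was at -0.994 (adjusted p = 0.0157), just under the 2-fold limit, and was not called. Adipoq, the fat hormone adiponectin, gave 275 and 304 in calvaria, 326 and 307 in mandible, and 1287 and 1361 in ulna (log2 difference -2.23 ± 0.08). Its level was again nearly the same in both skull bones, which differed by 0.09 on the log2 scale (adjusted p = 0.556). Thrsp, a nuclear protein of fat synthesis, had 24.1 and 27.2, then 51.6 and 34.6, against 169 and 174 in ulna. Acacb, an acetyl-CoA carboxylase, Retn, the adipokine resistin, and Mrap, a melanocortin receptor accessory protein, also separated. Their skull signals ranged from 2.07 to 55.7 and their ulna signals from 38.4 to 127, and each call was lost without either ulna array, at adjusted p of 0.0557 to 0.262.

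Csrp3, a muscle LIM protein, had 93.0 and 94.2 in calvaria, 597 and 509 in mandible, and 2291 and 2472 in ulna, so calvaria, mandible and ulna formed 3 separate levels. Myl2, a regulatory myosin light chain of slow and heart muscle, gave 15.4 and 16.1, then 81.7 and 70.2, against 685 and 772 in ulna. Ankrd1, a stress-responsive ankyrin repeat protein of muscle, had 15.0 and 21.0, then 8.63 and 32.8, against 169.6 and 188 in ulna, with no difference between the skull bones passing the test. Kng1, the precursor of the kinins, and Stfa3, an inhibitor of cysteine proteases, had skull signals of 3.75 to 30.7 and ulna signals of 94.7 to 135. Hoxa9, the remaining lead gene, is described with the positional genes.

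At the limit of 2-fold, the higher genes just inside were Pla2r1 and Smpd2 and those just outside were Pja1 and Ski, all at a log2 difference of 1.00 when rounded. The lower genes just inside were Zfp141 and Mlkl and those just outside were Coro1c and Ints6l, at -1.0.

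Osteoblast genes were higher wherever they were measured, and 15 of the 22 listed had a probe set with a single symbol on the array. All 15 tested were called higher in skull against 7.55% of all probe sets. Between the skull bones 12 of the 15 showed no called difference, and 7.57% of all probe sets had one. Sp7, a transcription factor needed for osteoblast formation, had signals of 338 and 367 in calvaria, 394 and 330.4 in mandible, and 89.6 and 96.7 in ulna. The skull bones overlapped and the log2 difference from ulna was 1.84 in each. Col1a1, the main collagen chain of bone, gave 11842 and 13503 in calvaria, 12080.2 and 11704 in mandible, and 1494 and 1419.6 in ulna (log2 difference 2.98 ± 0.06, adjusted p = 1.41e-10). Creb3l1, a stress-activated factor for collagen secretion, had 295 and 336, then 313 and 339, against 41.9 and 62.6. Cthrc1, a secreted protein of matrix-forming cells, was highest in calvaria at 1512 and 1515, with 750.4 and 754 in mandible and 58.6 and 73.4 in ulna. Ifitm5, an osteoblast membrane protein, also lay higher in calvaria than in mandible, by 1.05 on the log2 scale, and Alpl, the phosphatase of mineralization, lay higher in mandible by 1.51. Smpd3, a sphingomyelinase of mineralizing tissue, and Col5a2, a collagen chain, had log2 differences of 3.001 and 3.10 from ulna.

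Of the 21 collagen and collagen-processing genes, 17 were called without a called difference between the skull bones, and 7.57% of all probe sets had one. Serpinh1, the collagen chaperone HSP47, had 3453 and 3293 in calvaria, 3464 and 3351 in mandible, and 265 and 277 in ulna. The skull arrays could not be ordered by bone, and the log2 difference from ulna was 3.55 ± 0.06 (adjusted p = 1.09e-10). Lox, which crosslinks collagen, gave 1204 and 1262, then 2046 and 1912, against 188 and 179 (log2 difference 2.99). P4ha2, a prolyl hydroxylase, and Col12a1, a collagen associated with fibrils, rose by 2.49 and 2.65 on the log2 scale. The secretory pathway list was mixed, with 7 of 20 called higher, 9 more separated without a call, and a median of 0.47. Over all probe sets, 7.55% were called higher and 19.0% had all skull arrays above both ulna arrays. Called secretory genes included Rcn3, a calcium-binding protein of the endoplasmic reticulum, at 1120.3 to 1270.0 in skull against 121 and 137 in ulna. Sec24d and Copz2, coat proteins of secretory vesicles, rose by 1.97 and 2.75. Among the small leucine-rich proteoglycans, which bind collagen fibrils, 8 of 12 were higher. Ogn gave 2146 and 2046 in calvaria, 1875 and 2041 in mandible, and 327 and 364 in ulna, and Omd, Lum and Dcn rose by 2.99, 2.46 and 2.05.

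Osteocyte genes were higher in 5 of 9 tested, with a median of 1.22. Phex, the phosphate-regulating peptidase of osteocytes and odontoblasts, had 683 and 622 in calvaria, 2376 and 2179 in mandible, and 241 and 242 in ulna, 3 levels without overlap. Gja1, the gap junction protein connexin 43, and Pdpn, a marker of young osteocytes, had smaller differences between skull bones in the probe sets read. Their log2 differences from ulna were 1.72 and 1.88. Other Gja1 probe sets gave 2.13 and 3.19 from ulna, and the last lay higher in mandible than in calvaria by 1.46 (adjusted p = 0.00058). Ptprz1, a receptor phosphatase, rose by 1.38. Of 16 osteoclast genes 4 were higher, against 7.55% of all probe sets, and the median was 0.41. The 1 called lower is near the 7.36% of all probe sets and is given as a value only. Ctsk, the collagen-cleaving protease of osteoclasts, had 5239 and 5459.6 in calvaria, 3011 and 3115 in mandible, and 799 and 822 in ulna. Acp5 and Dcstamp, an osteoclast phosphatase and a fusion protein, rose by 1.81 and 2.50. Itgb3, an integrin chain of osteoclasts and platelets, ran the other way at 418 and 418, then 222 and 208, against 743 and 694 in ulna.

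Among 25 tested skull patterning genes, 10 were called higher and none lower at this limit, where Pax3, Six4 and Zic1 had log2 differences of -0.42, -0.02 and -0.16 without a call. The count was 6 by an ANOVA without limma's moderation of the variance and 4 with the skull arrays taken as 1 group. It was 5 with signals set to the array median, where the list median fell from 1.66 to 0.86. The direction of Six4 and Zic1 turned under some settings. Of the 10 called, 6 had both ulna arrays below the array median and so passed the filter through skull arrays alone. Twist1, a helix-loop-helix factor of sutures and cranial mesenchyme, had signals of 406 and 439 in calvaria, 188 and 179.5 in mandible, and 34.1 and 35.7 in ulna. The 3 bones formed separate levels, with a log2 difference of 2.90 ± 0.13 from ulna (adjusted p = 3.13e-08) and calvaria above mandible by 1.24. Dlx5, a homeobox factor of jaw and osteoblasts, gave 135 and 163 in calvaria, 181 and 157 in mandible, and 53.5 and 54.5 in ulna. Its skull bones overlapped, with a log2 difference of 1.45 from ulna. Msx1, a homeobox factor of cranial bone and teeth, gave 69.3 and 85.6, then 132 and 187, against 15.7 and 33.7.

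Others were called for the skull as a whole, and of these Msx2, Alx1, Dlx2 and Tfap2a were called higher in mandible than in calvaria. Dlx3, Tfap2b and Dlx6 had no called difference between the skull bones. Msx2 had 21.2 and 42.7 in calvaria, 353 and 403 in mandible, and 11.5 and 8.14 in ulna. Alx1, a homeobox factor of the frontonasal skeleton, had 37.9 and 43.3, then 202 and 239, against 10.2 and 10.9 in ulna. Calvaria lay between mandible and ulna in both genes, near the array median. Dlx2, Dlx3, Tfap2a and Tfap2b, further factors of facial development, showed calvaria signals of 13.3 to 58.1 and mandible signals of 39.2 to 124. Without ulna replicate 1 the difference of Dlx3 was 0.88, under 2-fold. Dlx6, the neighbour of Dlx5, gave 34.8 and 19.1, then 69.3 and 28.9, against 2.73 and 15.7, and its call was lost without calvaria replicate 1, mandible replicate 1 or ulna replicate 1 (adjusted p 0.0906, 0.112 and 0.233).

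Some skull genes marked 1 skull bone and not the other. Zic1, a zinc finger gene of neural tube and cranial mesenchyme, had 1439 and 1235 in calvaria, 2.35 and 1.18 in mandible, and 49.9 and 48.2 in ulna. Ulna lay between the skull bones, so the skull mean hid a difference of -9.69 between mandible and calvaria (log2, adjusted p = 1.46e-08). Nr2f1 and Meis2, factors of head mesenchyme, were likewise high in calvaria, at 87.3 to 114, with 7.62 to 26.6 in mandible. Hand2, a helix-loop-helix factor of the ventral jaw, and Lhx8, a LIM factor of the oral region, had mandible signals of 454 to 462 and of 156 on both arrays, and at most 9.29 elsewhere.

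Only 6 of 33 Hox genes on the array passed the filter, and 3 of these were called lower in skull and 1 higher. Hoxa10 and Hoxd8 passed it through the ulna arrays alone and so had to come out lower, and their values are a description. Hoxa3 passed it through the skull arrays alone, with both ulna arrays below their medians, and so had to come out higher. Hoxa9 gave 38.4 and 24.6 in calvaria, 2.01 and 17.4 in mandible, and 163 and 174 in ulna. All skull arrays lay below both ulna arrays, with a log2 difference of -3.74 ± 0.68 (adjusted p = 0.00124). The call of Hoxa9 was lost by the ANOVA without moderation and with the skull arrays taken as 1 group. In each of these settings, and with signals set to the array median, 1 of the 6 Hox genes was called lower and none higher. Hoxa10 gave 5.52 and 8.89, then 8.93 and 18.2, against 56.5 and 39.9, and Hoxd8 gave 17.3 and 14.3, then 24.0 and 23.1, against 47.6 and 64.1. Hoxa10 lost its call without either ulna array (adjusted p 0.143 and 0.0714), and Hoxd8 without ulna replicate 2 (adjusted p 0.0928). Hoxa3 was higher in skull at 36.0 and 46.3, then 39.5 and 53.9, against 22.5 and 12.3, and its call was lost without replicate 2 of any bone (adjusted p 0.0588 to 0.13). Hoxb4 and Hoxa5 had log2 differences of -1.29 and -0.15 and did not pass, though Hoxb4 did without mandible replicate 2 (adjusted p = 0.0354) and Hoxa5 stood at 0.37 without ulna replicate 1.

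Of 11 tested limb patterning genes, 5 were higher in skull and 1 lower, with a median of 1.30. Over all probe sets 7.55% were called higher and 7.36% lower, so the 1 called lower is given as a value only. Both ulna arrays lay below the array median for 3 of the 5. Prrx2, a paired-related homeobox factor of limb and facial mesenchyme, had 109.6 and 113 in calvaria, 159 and 207 in mandible, and 11.7 and 20.6 in ulna. The skull bones lay well above ulna, by 3.10 on the log2 scale. Tbx2, a T-box factor, gave 77.0 and 89.4, then 93.4 and 87.8, against 30.8 and 26.7, and Gli3, a hedgehog effector, rose by 1.65. Prrx1 rose by 1.30, and Shh, the hedgehog ligand, was mainly high in mandible at 477 and 507, against 28.3 and 34.0 in calvaria and 19.8 and 11.0 in ulna. Tbx15, a T-box factor of skeleton and fat, was the gene called lower, at 139 and 101, then 155 and 145, against 272 and 357 in ulna. Shox2, a homeobox gene of the proximal limb, had 32.3 and 24.9 in calvaria, 351 and 315 in mandible, and 148 and 158 in ulna, and so split the skull bones.

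**Figure D3:**
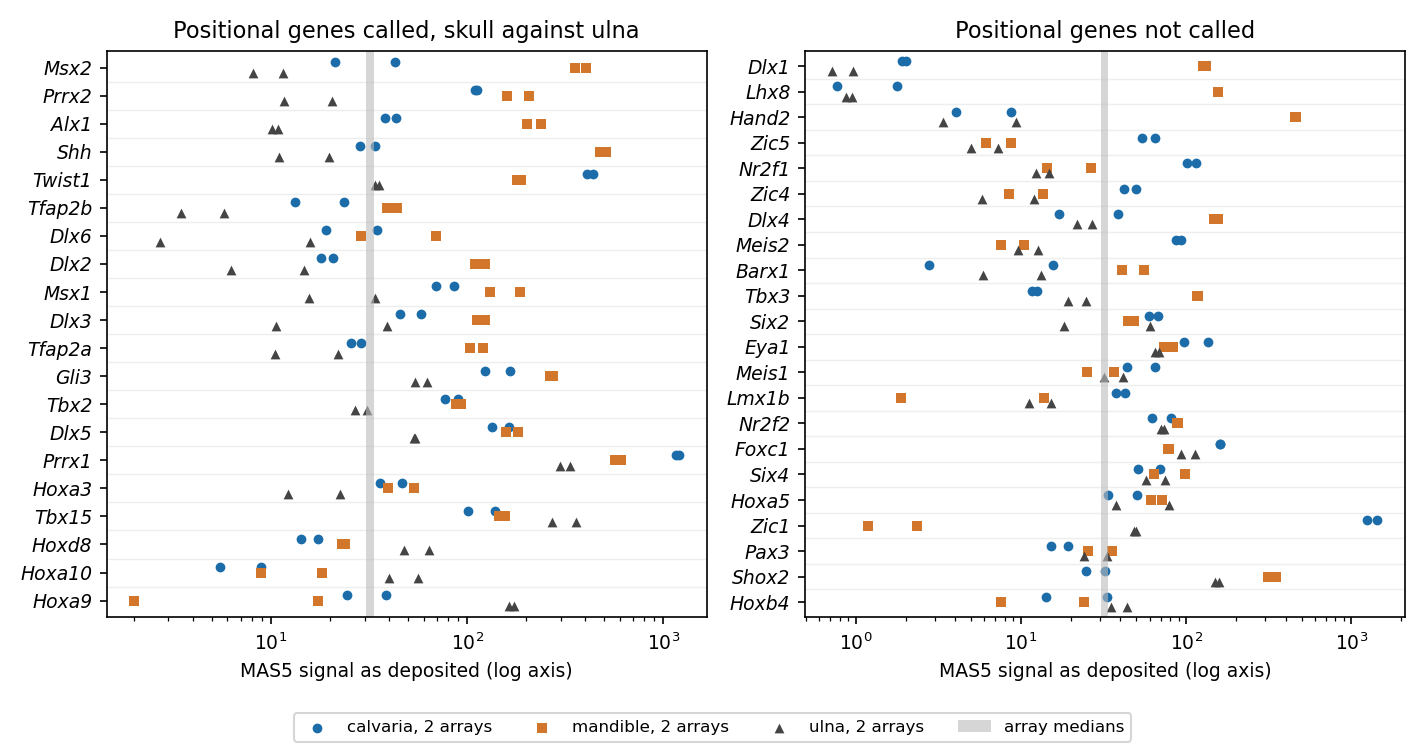
Deposited signal on each array (log axis) for the tested members of the skull patterning, Hox and limb patterning lists, with called genes on the left and genes not called on the right; circles are calvaria, squares mandible, triangles ulna, and the grey band spans the array medians. On the right, Zic1 is high in calvaria, Hand2 and Lhx8 are high in mandible, and ulna lies between the skull bones for Zic1 and Shox2.

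Signalling genes were called mostly in 1 direction. Of 21 Wnt pathway genes, 9 were higher and none lower, and the lowest difference was 0.10. Beside Sfrp2 these included the secreted Dickkopf proteins Dkk3, at 214 and 243, then 227 and 265, against 46.5 and 46.4, and Dkk2, whose ulna signals of 8.64 and 1.20 lay below the array median. Fzd8, a Wnt receptor, rose by 2.07. Both ulna arrays lay below the array median for 4 of the 9 Wnt genes called. Of 24 BMP and TGF-beta genes, 9 were higher and 1 lower, against 7.55% and 7.36% of all probe sets. The 1 called lower is not above that share and is given as a count only. Tgfb3 gave 325 and 253, then 519 and 554, against 113 and 82.7, and Id3, a target of BMP signalling, rose by 1.91. Chrd, the BMP antagonist chordin, had 25.5 to 54.9 in skull and 2.57 and 2.60 in ulna, a log2 difference of 3.74 that became 0.25 with signals set to the array median. Bmp8a rose by 1.30, and by 0.98 without ulna replicate 1.

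Tendon and cartilage genes were higher in both skull bones in part. Of 11 tendon and periosteum genes 7 were higher. Tnmd, a tendon membrane protein, had 992 and 995 in calvaria, 355 and 319.7 in mandible, and 60.5 and 81.3 in ulna. Thbs2, a matrix thrombospondin, had 1702 and 1519.8, then 463 and 635, against 108 and 72.1, so both were highest in calvaria. Fbn2, a fibrillin, was highest in mandible, and Mkx, a tendon factor, rose by 2.55. Of 14 cartilage genes 5 were higher and 1 lower, against 7.55% and 7.36% of all probe sets. The 1 called lower is near that share and is given as a count only. With signals set to the array median 2 were higher, and without ulna replicate 2 the list median was 1.79 in place of 1.36. All 5 higher cartilage genes had both ulna arrays below the array median and so passed the filter through skull arrays alone. Matn4, a matrilin, had 540.0 and 497, then 196 and 217, against 23.3 and 14.8, while Hapln1, Col9a3 and Cnmd were dim in calvaria at 10.2 to 28.5. The call of Col9a3 was lost without mandible replicate 2 (adjusted p = 0.0642).

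Genes of red cells were mostly lower in skull, and those of other marrow cells in part. Of 19 erythroid genes 16 were lower, with a median of -1.21 for the skull mean, -0.81 for calvaria and -1.67 for mandible. Ermap, an erythroid membrane protein, had 649 and 716 in calvaria, 328 and 357 in mandible, and 1698 and 1527 in ulna, 3 levels in falling order from ulna to mandible. Kel, the Kell blood group protein, gave 239.8 and 237, then 143 and 142, against 528 and 502. Car1, a red cell carbonic anhydrase, fell by 1.73, and Gfi1b, an erythroid repressor, by 1.34. With the values as deposited 11 of 19 passed, and after quantile normalization 10. Of 16 neutrophil genes 5 were lower and 9 more separated without a call, while 3 were lower as deposited and 2 with the skull arrays taken as 1 group. Over all probe sets, 7.36% were called lower and 30.3% had all skull arrays below both ulna arrays. Against ulna, 10 neutrophil genes were lower in mandible and 1 in calvaria. Mpo, the granule peroxidase, was called at 3363 and 3629, then 1819 and 1781, against 5597 and 6058. Prtn3 fell by 1.19, and Ctsg and Fcnb fell by 1.04 each and by 0.96 and 1.00 without ulna replicate 2 and mandible replicate 1. Of 14 B cell genes 3 were lower, the precursor genes Dntt and Il7r and the surface receptor Cd22, by 1.63, 1.32 and 1.11, with 7 lower in mandible and none in calvaria. Of 10 macrophage genes 1 was called lower, near the 7.36% of all probe sets, and is given as a value only. Vcam1, an adhesion protein, fell by 1.09, and by 0.97 without ulna replicate 2. Another Vcam1 probe set was at -0.416 (adjusted p = 0.078), with the skull and ulna arrays overlapping. Of 18 proliferation genes 9 were lower in the skull mean, with 16 lower in mandible and 1 in calvaria. Mki67, a marker of dividing cells, gave 1974 and 1936, then 977 and 1068, against 4060.3 and 3872, and Bub1, Mcm3 and Rrm2 fell by 1.41, 1.30 and 1.30. Another Rrm2 probe set was at -0.615, with the skull and ulna arrays overlapping.

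Fat and muscle lists differed in how they were shared. Of 10 adipocyte genes 6 were lower, against 7.36% of all probe sets, with a median of -1.46. Of the 6, 5 had no called difference between the skull bones, and 7.57% of all probe sets had one. Fabp4, a fatty acid carrier, had 2025 and 1964 in calvaria, 1489.6 and 1475 in mandible, and 4269 and 4465 in ulna. Of 30 muscle genes 22 were lower in skull, but 28 were higher in mandible than in calvaria. Against ulna, 29 were lower in calvaria, with a median of -3.17, and 4 in mandible, with a median of -0.51. Myh2, a fast myosin heavy chain, gave 68.4 and 77.7 in calvaria, 1815 and 1895 in mandible, and 5600.4 and 5539 in ulna. Tcap, a titin-binding protein, fell by 2.54, and Tnnt1, slow troponin T, by 1.68. With the skull arrays taken as 1 group without a mean for each bone, 2 of 30 muscle genes passed.

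**Figure D4:**
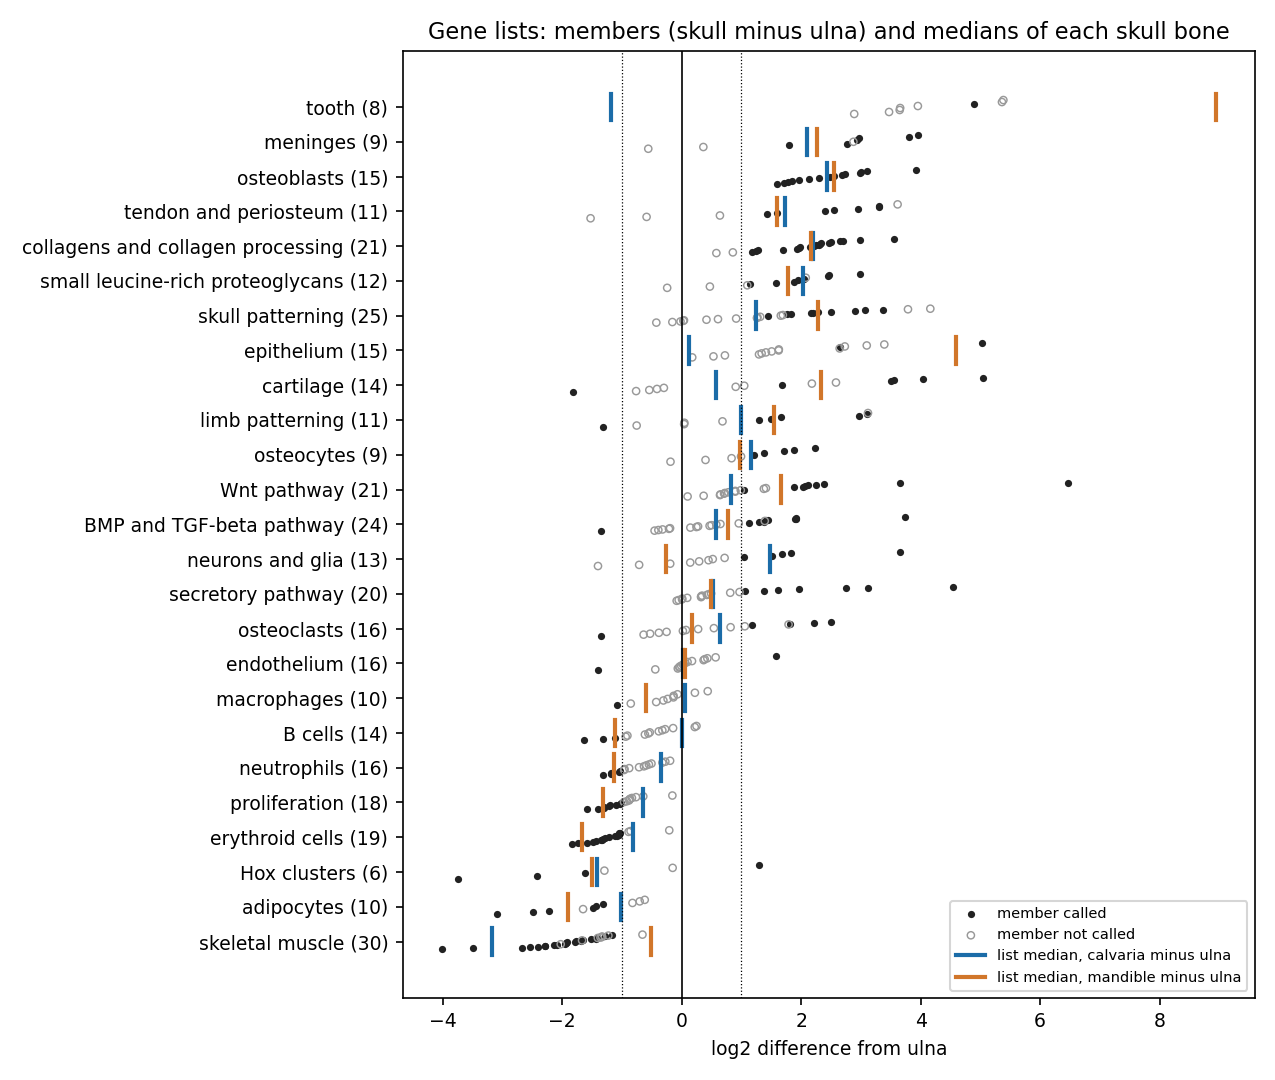
Each row is a gene list with its number of tested genes; points are log2 differences of skull from ulna, filled where called, and the blue and orange bars are the list medians for calvaria and for mandible against the same ulna arrays. The bars lie close together for osteoblast, collagen and Hox genes and far apart for muscle, tooth and epithelium, and the dotted lines mark 2-fold.

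Genes of vessels, teeth, epithelium, meninges and nerve were counted as well. Of 16 endothelial genes 1 was higher and 1 lower, shares near the 7.55% and 7.36% of all probe sets, and both are given as values only. Emcn, a sialomucin of small vessels, had 229 and 302, then 322 and 320.1, against 93.4 and 88.2, and Vwf, a clotting factor of vessel walls, had 284 and 314, then 216 and 228, against 597 and 673. Of 8 tooth genes, Ambn, an enamel matrix protein, passed, at 23.2 and 25.0 in calvaria, 13634 and 14869 in mandible, and 20.9 and 16.2 in ulna, so its skull value rests on mandible. Of 15 epithelial genes, Krt13 and Perp, a keratin and a desmosome protein, passed in the same way. Ambn, Krt13 and Perp all lost their calls with the skull arrays taken as 1 group, and Ambn and Krt13 also with signals set to the array median. Of 9 genes of the meninges 6 were called higher, with a median of 2.88, and all 6 had both ulna arrays below the array median. With signals set to that median 2 of 9 passed and the list median was 1.10, and 3 passed by the ANOVA without moderation. Foxd1, a forkhead factor, gave 183 on both calvaria arrays, 22.7 and 21.6 in mandible, and 3.45 and 5.27 in ulna. Igfbp2, Gjb6 and Cldn11 had log2 differences of 2.77, 2.94 and 2.98, the last lost without calvaria replicate 1 (adjusted p = 0.0534). Of 13 neural and glial genes 5 rose, and 2 with signals set to the array median. Both ulna arrays lay below the array median for 3 of the 5. Among the 5 were the myelin gene Mbp, at 676 and 712, then 905 and 965, against 233 and 237, and the neuronal genes Gap43, Tubb3 and Stmn2. The part of meninges, nerve or tooth tissue in the other differences was not tested.

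Promoter sequence from RefSeq was searched for motifs, in 250 bases before and 50 after each start site on the build GRCm38.p6, on both strands. A first promoter was found for 826 of the 1092 higher genes, 689 of the 844 lower genes and 9946 of the 12326 tested genes. The RUNX core TGTGGT was present in 10.9% of higher, 19.3% of lower and 12.7% of tested promoters, and in 16.9% of all 27025. The GATA motif AGATAA was present in 6.30% of higher, 11.8% of lower and 6.51% of tested promoters, and in 11.4% of all. For the AP-1 motif TGANTCA the shares were 4.24%, 7.69%, 5.15% and 7.93%, for TATAAA 9.69%, 12.1%, 7.70% and 14.2%, and for the MEF2 motif TAAAAATA 0.969%, 2.03%, 1.33% and 2.71%. The promoters of a shared skull gene with an AP-1 motif, a proteoglycan with a RUNX core and an erythroid gene and a lead lower gene with GATA motifs are shown from base -120 to base -1, with the motifs in capitals (reverse complements included). A match is a description of the sequence and not a binding site.
Lrrc15, higher in skull, chr16:30283255-30283374, minus strand: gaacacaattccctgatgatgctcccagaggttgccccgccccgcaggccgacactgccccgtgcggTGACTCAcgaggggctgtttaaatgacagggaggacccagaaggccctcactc
Ogn, higher in skull, chr13:49607895-49608014, plus strand: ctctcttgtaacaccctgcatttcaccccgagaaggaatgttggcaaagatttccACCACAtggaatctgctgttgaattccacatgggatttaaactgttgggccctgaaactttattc
Kel, lower in skull, chr6:41704326-41704445, minus strand: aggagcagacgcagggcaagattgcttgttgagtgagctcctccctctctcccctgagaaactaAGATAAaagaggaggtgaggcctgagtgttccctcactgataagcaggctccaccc
Stfa3, lower in skull, chr16:36455393-36455512, minus strand: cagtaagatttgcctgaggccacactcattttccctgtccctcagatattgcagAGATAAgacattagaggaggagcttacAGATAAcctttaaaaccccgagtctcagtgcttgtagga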

How the data were processed

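Values were deposited by the authors as MAS5 signal, a linear intensity for each of 45101 probe sets, with the same trimmed mean on every array. RNA came from ground bone and was labelled in 1 cycle. All 6 columns were matched to a bone by their labels. Probe sets were named from the platform annotation and checked against RefSeq genes on GRCm38.p6. This gave 1 symbol for 34958, several for 932 and none for 9211, the last 2 kinds being tested but unnamed, and 64 control probe sets were left out. A gene was read from its brightest tested probe set. Of 414 higher and 358 lower genes with several tested probe sets, 213 and 122 had all of them called the same way. A probe set was called the other way for 4 and 2 of these genes.

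Each array was divided by its median, log2 was taken without an offset, and limma 3.58.1 (R 4.3.3) estimated a mean for each bone (variance trend, 3 residual and 7.67 prior degrees of freedom, median SD within a bone 0.194 on the log2 scale). P-values were adjusted by Benjamini and Hochberg over 25233 probe sets. Of these, 434 passed the filter through ulna alone and 520 through all 4 skull arrays without ulna, so those had to differ. The fit was tested on simulated data. An ANOVA of the same contrast without moderation of the variance was an alternative. It kept the scaling and limits used here and did not repeat the normalization of the paper. Replicate differences were uncorrelated between bones (r -0.0123 to 0.00585), so no shared effect of replicate number was seen. Whether arrays with the same number came from the same mice is not known, and this cannot show it. The alternatives cover scaling, filter, offset, variance, design, threshold, unit and each array left out.

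Named are the 12 genes in each direction with the largest shared difference, up to 4 called members of each of 25 lists with the largest shared difference, some of the tested positional genes and the genes at the fold limit. Sp7, Creb3l1, Ifitm5, Alpl and the genes in the closing observations were chosen after their values were seen. Members and lists were chosen with earlier results of these data known. Of 485 list genes 383 were tested. Plots were drawn with matplotlib 3.10.9.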

Additional observations from a re-analysis of the deposited data

Results flagged for a closer look

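Named genes called for the skull as a whole were looked at again where mandible and calvaria also differed by the test of that difference. The values are log2 mandible minus calvaria, and positive values are higher in mandible. Among genes higher in skull, the differences were 9.17 for Ambn, 8.63 for Krt13, 3.94 for Shh, 3.88 for Perp, 3.61 for Msx2, 2.54 for Dlx2, 2.40 for Alx1, 2.35 for Hapln1, 2.23 for Fbn2, 2.01 for Efnb2, 1.999 for Tfap2a, 1.76 for Phex, 1.51 for Alpl, 1.44 for Stmn2, 1.33 for Igfbp2 and 1.18 for Ptn. Higher in calvaria were Foxd1 at -3.09, Thbs2 at -1.61, Tnmd at -1.60, Matn4 at -1.37, Twist1 at -1.24, Sfrp2 at -1.24, Cthrc1, Ifitm5 and Prrx1 at -1.05 each, and Acp5 at -1.03.

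Among genes lower in skull, mandible was above calvaria for the muscle genes Myh2 at 4.63, Tcap at 3.04, Csrp3 at 2.52 and Myl2 at 2.23, and for Mlxipl, a factor of fat synthesis, at 1.43. Mandible was below calvaria for genes of marrow and dividing cells, with Dntt at -1.42, Il7r at -1.26, Bub1 at -1.16, Mcm3 at -1.13, Vcam1 at -1.06, Car1 at -1.04, Ermap at -1.04, Ctsg at -1.03 and Itgb3 at -1.0.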

How the results depend on the processing

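Leaving out 1 array at a time gave 1813 to 2078 probe sets higher in skull, 1537 to 1966 lower, 750 to 1111 higher in mandible than in calvaria, 622 to 1009 higher in calvaria, and 1525 to 1888 called at each skull bone alone. A filter at the 75th percentile gave 1085, 1171, 675, 514 and 1217 for the same 5 counts, genes in place of probe sets gave 1094, 846, 649, 522 and 955, and the adjusted p alone gave 3748, 5780, 2114, 3418 and 5740. The first 2 of these test fewer features, and the last drops the fold limit. The ANOVA without moderation gave 435, 288 and 988 for the last 3 counts, and taking the skull arrays as 1 group gave 1116 lower. Setting signals below the array median to the median, an alternative chosen after seeing the data, gave 1266 higher. With the replicate number as a block 1882 were higher and 1834 lower. Of 137 named genes called, 80 passed in every setting that tested them and none reversed. Of 21 named genes not called, Hoxa5, Six4 and Zic1 changed sign. Leaving out 1 array at a time gave -0.68 to 0.37 for Hoxa5, -0.21 to 0.17 for Six4 and -0.40 to 0.089 for Zic1. Six4 was at 0.078 as deposited, 0.016 after quantile normalization and 0.061 with 75th percentile scaling, and Zic1 at 0.94 with the offset and 2.01 with signals set to the array median. The filter at the 75th percentile left 1 cartilage, 3 meninges and 3 neural genes higher, and the adjusted p alone gave 8 osteocyte, 15 secretory and 14 Wnt genes higher and 14 neutrophil and 17 proliferation genes lower. Limits are the 2 arrays per bone, the number of mice behind an array, which is not given, and dim signals whose fold is imprecise. Further limits are marrow, muscle and tooth RNA that came with the bone, and nerve RNA that may have come with it.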

Other observations

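Imprinted genes, which are expressed from the copy of 1 parent and act in fetal growth, were looked at after values of these data had been seen, so no test over the list is given. Of 16 with a tested probe set 10 were called higher for the skull mean, of which Mirg did not pass in mandible alone. Of the others, 3 separated above ulna without a call and 3 overlapped. Over all probe sets, 7.55% were called higher, 19.0% had all skull arrays above both ulna arrays, and 50.7% overlapped. Igf2, a fetal growth factor, had signals of 915 and 997 in calvaria, 864 and 788 in mandible, and 93.3 and 80.5 in ulna. Its skull bones lay close together, with a log2 difference of 3.26 from ulna (adjusted p = 1.29e-09). Peg3, a zinc finger protein, gave 501 and 534, then 442 and 512, against 104 and 112, and Grb10, a growth factor receptor adaptor, gave 501 and 501, then 538 and 506, against 116 and 128. Meg3, Plagl1, Mest, Ndn, Cdkn1c, Sgce and Mirg rose by 1.09 to 2.09 on the log2 scale, the last losing its call without calvaria replicate 2, mandible replicate 1 or ulna replicate 2. Gnas, Igf2r and Impact separated by 0.23 to 0.69, and Dlk1, Nnat and Rian overlapped. None of the 16 was called between mandible and calvaria, where 7.57% of all probe sets were. Mest was higher in mandible by 0.94 on the log2 scale (adjusted p = 0.00159), under the limit of 2-fold.

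Guidance ligands and receptors, chosen in the same way, were called higher for 22 of 37 and lower for none, against 7.55% and 7.36% of all probe sets. Both ulna arrays lay below the array median for 11 of the 22. Epha3, an ephrin receptor, gave 301 and 275 in calvaria, 222 and 292 in mandible, and 14.9 and 21.9 in ulna. Sema3d, a secreted semaphorin, gave 224 and 268, then 212 and 249.8, against 50.2 and 53.8. Of the 22, 16 showed no called difference between the skull bones, and 7.57% of all probe sets had one. Efnb2, an ephrin, was mainly high in mandible at 369 and 387, against 74.4 and 111 in calvaria and 58.3 and 38.7 in ulna. Of 14 genes of fatty acid and triglyceride synthesis, 4 were lower, namely Scd1, Acacb, Mlxipl and Dgat1, against 7.36% of all probe sets. The 1 called higher, Scd2, is near the 7.55% of all probe sets and is given as a value only. Acacb lost its call without either ulna array, Mlxipl without ulna replicate 1 (adjusted p = 0.0627), and Dgat1 without replicate 2 of any bone, at log2 differences of -0.96 to -0.88. Scd2, another desaturase, was higher by 1.14, and Fasn, the fatty acid synthase, separated below ulna by 0.58 without reaching 2-fold.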
